A study of Mus musculus with 23 samples.

Results

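Sst, Npy, Pvalb, Gad1 and Slc32a1 were followed as 5 genes of inhibitory neurons in the nucleus accumbens of mice bred for a high or a low response to methamphetamine. They were taken as all probe sets that the platform annotation assigned to these 5 names, which gave 6 probe sets of 12488 on the array and 5 genes of 8251. None of the 5 genes passed the test between any of the groups compared. The data held a close parallel between Sst and Npy from pool to pool. A line difference in Pvalb fell short of the threshold (limma adjusted p = 0.311), at -0.87 with 1 probe set and -0.07 with the other.

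The selected lines came from a stock of C57BL/6J and DBA/2J mice: HMACT was bred for a strong and LMACT for a weak acute response to methamphetamine, a drug that drives dopamine out of nerve terminals. One injection, either saline or methamphetamine at 2 mg/kg, was given in both lines, and brains were taken 1 h later. Each array held RNA of accumbens tissue pooled 4 ways, with 6 HMACT saline, 6 HMACT methamphetamine, 6 LMACT saline and 5 LMACT methamphetamine pools. All mice thus received an injection, and the saline pools were the controls within each line. The mean age of a pool ran from 77.25 to 154 days in HMACT and from 60 to 127.5 days in LMACT, so age was partly confounded with line. Chip lots A, B, C and D held 15, 4, 3 and 1 arrays, and the array of lot D was LMACT methamphetamine pool 4. Each line stands for 1 selected population here, so a line difference cannot be told apart from drift during breeding. Nothing in the labels says whether pools shared animals, so the tests measure the spread between pools.

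The accumbens is built mostly of GABA-releasing projection neurons, with a small share of interneurons scattered among them. Fast-spiking interneurons carry parvalbumin, a calcium-binding protein encoded by Pvalb, and inhibit projection neurons around the cell body. A separate class releases somatostatin (Sst) and neuropeptide Y (Npy), peptides that are often made by the same striatal cells. Gad1 encodes the GABA-synthesizing enzyme GAD67, and Slc32a1 encodes the transporter that loads GABA into synaptic vesicles. Projection neurons and interneurons both need these last genes. In pooled tissue, fewer cells of a type and less RNA per cell cannot be told apart.

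The promoter windows of Sst and Npy are shown because these genes varied together across pools. Both come from RefSeq on build GRCm38.p6 and span 300 bases, from 250 before to 50 after the annotated start. The Sst window lies at chr16:23890795-23891094 on the minus strand, and capitals mark the cAMP response element TGACGTCA, a binding sequence of CREB family factors. The Npy window lies at chr6:49822460-49822759 on the plus strand, and capitals mark a GC box, GGGCGG.
Sst: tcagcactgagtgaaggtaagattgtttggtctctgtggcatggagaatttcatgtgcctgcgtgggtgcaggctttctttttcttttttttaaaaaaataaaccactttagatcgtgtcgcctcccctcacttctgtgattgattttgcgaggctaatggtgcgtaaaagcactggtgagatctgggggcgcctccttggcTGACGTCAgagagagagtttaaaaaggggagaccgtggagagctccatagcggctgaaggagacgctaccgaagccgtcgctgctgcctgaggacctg
Npy: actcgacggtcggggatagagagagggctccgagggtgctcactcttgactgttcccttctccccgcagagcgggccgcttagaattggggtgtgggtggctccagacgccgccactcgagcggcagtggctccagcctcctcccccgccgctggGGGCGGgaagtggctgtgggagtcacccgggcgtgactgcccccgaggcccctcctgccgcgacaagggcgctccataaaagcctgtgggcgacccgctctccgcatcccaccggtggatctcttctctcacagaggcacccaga

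The element in the Sst window occupied bases 203 to 210, starting 48 bases before the annotated start. Searched on both strands, TGACGTCA occurred in 1.79% of 32851 mouse promoter windows of the same length. Its core TGACG, which overlaps the full element, occurred in 20.8% of them, the AP-1 sequence TGANTCA in 7.81% and GGGCGG in 35.7%. The Npy window held 1 GC box at bases 156 to 161 and none of the other motifs. In the Gad1 window a GC box lay on the opposite strand at bases 243 to 248. None of the 4 motifs occurred in the Slc32a1 window or in either of the 2 Pvalb windows. These matches describe letters in a window, and no binding was measured.

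All 5 genes were above the lowest deposited values on all 23 arrays, and values in the whole table ran from 2.23 to 16.4 on what appears to be a log2 scale. Among marker lists, projection-neuron genes were present with a log2 summed level of 13.58 to 14.67 over all pools, while Rgs9 was at the floor. Of 5 oligodendrocyte genes measured, Cnp was at the floor and the summed level was 12.04 to 13.11 in HMACT and 12.83 to 13.55 in LMACT, with 12 of 12 HMACT pools below the LMACT median. The astrocyte sum was 13.08 to 13.69 in HMACT and 13.34 to 14.06 in LMACT, with 10 of 12 HMACT pools below the LMACT median. Of 4 astrocyte genes, 1 had a positive and 3 a negative line difference averaged over injections. The microglial sum also had 10 of 12 below, and its brightest gene, Ctss, was lower in HMACT by -0.38. Of the 5 microglial genes, however, 3 had positive and 2 negative line differences averaged over injections, with a median of 0.26. HMACT pools were also older, with a mean age of 114.6 ± 34.9 days (SD, n = 12) against 76.6 ± 22.5 days (SD, n = 11). The main axis of the residuals held 62.1% of the residual variance over 5308 genes. Each array was scored on it by its values minus the mean of all arrays, which keeps line and drug differences in the score. On these scores 4 arrays stood apart from the other 19. These were HMACT saline pools 3 and 5, HMACT methamphetamine pool 3 and LMACT methamphetamine pool 4. Results for the 5 genes that rest most on them are given with and without them, and values of other genes are over all 23 arrays unless stated. The part of the 4 arrays in the results beyond those values was not tested.

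**Figure D1:**
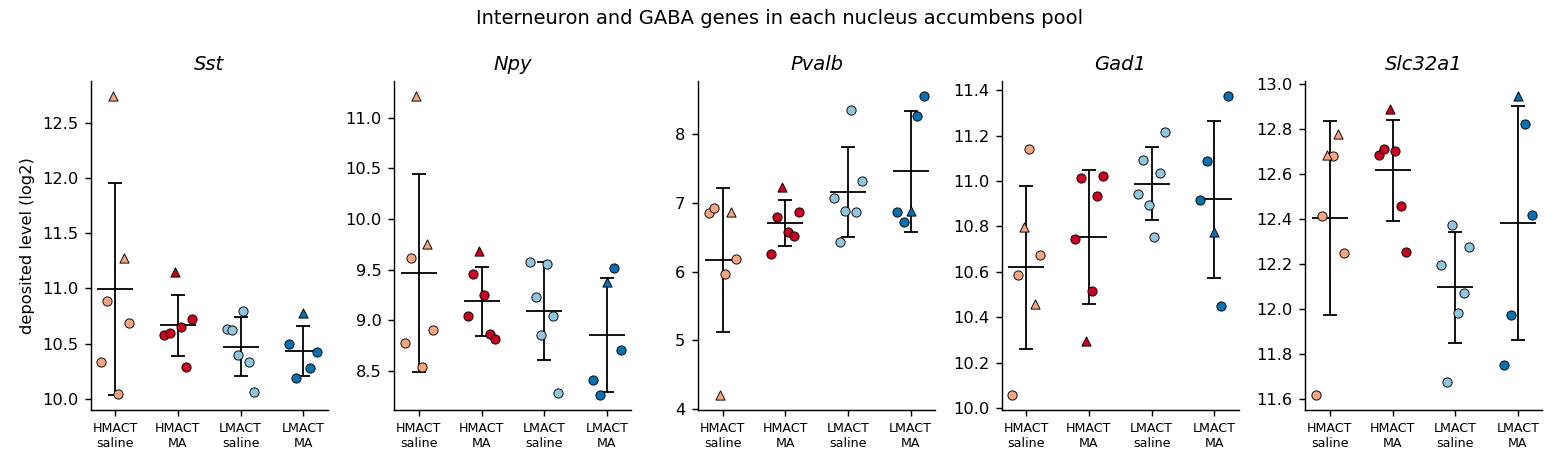
Deposited log2 level (vertical axis, a separate scale for each gene) of the 5 genes in each of the 23 pools, by line and injection. Points are pools, triangles are the 4 arrays that stand apart, horizontal lines are group means and bars are 1 SD; HMACT saline pool 3 is the highest pool for Sst and Npy and the lowest for Pvalb.

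Somatostatin was read by 1 probe set, 95436_at, and its gene lies on chromosome 16. In HMACT saline pools 1 to 6 the Sst level was 10.34, 10.89, 12.74, 10.04, 11.28 and 10.68, a mean of 11.00 ± 0.96 (SD, n = 6). In HMACT methamphetamine pools it was 10.57, 10.60, 11.15, 10.65, 10.29 and 10.72, a mean of 10.67 ± 0.28 (SD, n = 6). The HMACT saline group thus held both the highest and the lowest Sst value of the experiment. In LMACT saline pools the level was 10.63, 10.63, 10.40, 10.80, 10.33 and 10.06, a mean of 10.47 ± 0.26 (SD, n = 6). In LMACT methamphetamine pools 2 to 6 it was 10.49, 10.19, 10.78, 10.28 and 10.42, a mean of 10.43 ± 0.23 (SD, n = 5). The groups overlapped, and apart from HMACT saline pools 3 and 5 and HMACT methamphetamine pool 3 all values lay between 10 and 11.

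Neuropeptide Y, a peptide transmitter whose gene lies on chromosome 6, was read by probe set 103235_at. Its level in HMACT saline pools was 8.78, 9.61, 11.21, 8.54, 9.75 and 8.91, a mean of 9.47 ± 0.98 (SD, n = 6). In HMACT methamphetamine pools it was 9.04, 9.46, 9.69, 9.25, 8.87 and 8.81, a mean of 9.19 ± 0.34 (SD, n = 6). As for Sst, HMACT saline pool 3 was the highest of all pools. In LMACT saline pools Npy was 9.58, 9.23, 8.86, 9.56, 9.04 and 8.28, a mean of 9.09 ± 0.49 (SD, n = 6). In LMACT methamphetamine pools it was 8.41, 8.27, 9.37, 9.52 and 8.71, a mean of 8.85 ± 0.56 (SD, n = 5). The 4 groups overlapped.

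Sst and Npy group means had the same order, HMACT saline, HMACT methamphetamine, LMACT saline and LMACT methamphetamine from high to low. No neighboring pair of means in that order differed by more than the residual SD, which was 0.54 for Sst and 0.64 for Npy. Without the 4 arrays that stand apart the HMACT saline means were 10.49 ± 0.37 for Sst and 8.96 ± 0.46 for Npy (SD, n = 4), and the LMACT saline mean of Npy, 9.09, was then the higher of the pair.

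Parvalbumin was read by 2 probe sets on chromosome 15, 96719_i_at and 96720_f_at, both designed from 1 sequence record. The second hardly varied: on 14 of 23 arrays its level was within 0.01 of 3.36, and its highest level was 4.47. The values below are from 96719_i_at, the brighter of the pair by mean. It too had a repeated value: 4 arrays, 1 in each group, read exactly the same level of 6.87. No value was repeated between arrays for Sst, Npy, Gad1 or Slc32a1. In HMACT saline pools Pvalb was 6.85, 6.93, 4.21, 5.96, 6.87 and 6.18, a mean of 6.17 ± 1.04 (SD, n = 6). In HMACT methamphetamine pools it was 6.25, 6.79, 7.23, 6.58, 6.51 and 6.87, a mean of 6.71 ± 0.34 (SD, n = 6). HMACT saline pool 3, high in both peptides, was the lowest of all 23 pools for Pvalb. In LMACT saline pools the level was 7.07, 6.44, 6.88, 8.35, 6.87 and 7.32, a mean of 7.16 ± 0.65 (SD, n = 6). In LMACT methamphetamine pools it was 6.87, 6.72, 6.88, 8.27 and 8.56, a mean of 7.46 ± 0.88 (SD, n = 5). The 3 values above 8 were all from LMACT. LMACT saline pool 6, at 7.32, also lay above the highest HMACT pool at 7.23, and the remaining LMACT pools overlapped with HMACT. From high to low the order of group means was LMACT methamphetamine, LMACT saline, HMACT methamphetamine and HMACT saline, with no step above the residual SD of 0.77.

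Gad1, the gene of GAD67 on chromosome 2, was read by 103061_at. It was 10.06, 10.58, 10.80, 11.14, 10.46 and 10.68 in HMACT saline pools (mean 10.62 ± 0.36, SD, n = 6). After methamphetamine HMACT pools read 10.74, 11.01, 10.29, 10.52, 10.93 and 11.02 (mean 10.75 ± 0.30, SD, n = 6). The 2 lowest Gad1 values of the experiment were both from HMACT, in saline pool 1 and methamphetamine pool 3. LMACT saline pools read 10.94, 11.09, 10.89, 10.75, 11.04 and 11.22 (mean 10.99 ± 0.16, SD, n = 6). LMACT methamphetamine pools read 10.92, 11.09, 10.78, 10.45 and 11.37 (mean 10.92 ± 0.35, SD, n = 5). Both LMACT groups overlapped with both HMACT groups. The residual SD of Gad1, 0.30, exceeded each step in the order LMACT saline, LMACT methamphetamine, HMACT methamphetamine, HMACT saline.

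Slc32a1, the vesicular GABA transporter gene, also on chromosome 2, was read by 101420_at. HMACT saline pools read 11.62, 12.41, 12.68, 12.68, 12.77 and 12.25 (mean 12.40 ± 0.43, SD, n = 6). HMACT methamphetamine pools read 12.68, 12.71, 12.89, 12.70, 12.46 and 12.25 (mean 12.61 ± 0.23, SD, n = 6). Apart from HMACT saline pool 1, the HMACT values were all at 12.25 or above. LMACT saline pools read 12.19, 11.67, 12.37, 11.98, 12.07 and 12.27 (mean 12.09 ± 0.25, SD, n = 6). LMACT methamphetamine pools read 11.75, 11.97, 12.95, 12.82 and 12.42 (mean 12.38 ± 0.52, SD, n = 5). The LMACT methamphetamine group spanned the range of every other group but for HMACT saline pool 1 and LMACT saline pool 2. HMACT methamphetamine had the highest mean, then HMACT saline, LMACT methamphetamine and LMACT saline, with no step above the residual SD of 0.37.

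The 5 genes differed in how much they varied within groups. Over 5308 genes above the floor on at least 12 arrays, the median residual SD was 0.37. Pvalb varied more than 91.4% of these genes, Npy more than 84.8% and Sst more than 75.6%, while Slc32a1 lay near the median (50.2%) and Gad1 below it (37.4%). Without HMACT saline pool 3 the residual SD of Sst was 0.32, below that of Slc32a1 (0.37), while Npy (0.48) and Pvalb (0.61) stayed above both GABA genes. Without the 4 arrays that stand apart it was 0.25 for Sst, 0.45 for Npy, 0.62 for Pvalb, 0.30 for Gad1 and 0.34 for Slc32a1. Pvalb and Npy thus had a wider spread than Gad1 and Slc32a1 with and without these arrays, and the wide spread of Sst rested on HMACT saline pool 3.

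The lines were compared to ask which expression differences accompany selection for drug response. Averaged over both injections, Pvalb was lower in HMACT than in LMACT by a log2 difference of -0.87 ± 0.318 (SE), 1.83-fold, with a 95% interval of -1.54 to -0.21. In limma, p was 0.0130 before and 0.311 after Benjamini-Hochberg adjustment over 8251 genes. In all, 10 of 12 HMACT pools lay below the LMACT median and 4 lay below every LMACT pool. Of those 10 pools, 2 were at the repeated value of 6.87, just under the LMACT median of 6.88. The second probe set, 96720_f_at, differed by -0.07 ± 0.111 (SE), and the mean of both probe sets by -0.47 (limma adjusted p = 0.338, against 0.0983 to 1 over all alternatives). The size of the Pvalb difference thus depended on the probe set. Gad1 was lower by -0.27 ± 0.124 (SE), 1.20-fold, with 9 of 12 HMACT pools below the LMACT median. For Gad1 the limma p was 0.0430 and the adjusted p 0.385. With array weights Gad1 was past the threshold (-0.31, limma adjusted p = 0.0428), as were 830 genes, and its adjusted p was 0.146 to 1 under all other alternatives. None of the 5 genes was called, where 16 of 8251 genes (0.194%) were called in this comparison and 12.7% had an unadjusted p under 0.05.

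The other genes had higher means in HMACT. The Slc32a1 difference was 0.27 ± 0.152 (SE, limma adjusted p = 0.459), and 11 of 12 HMACT pools lay above the LMACT median. For Sst it was 0.38 ± 0.223 (SE, 95% interval -0.09 to 0.84, limma adjusted p = 0.477) and for Npy 0.35 ± 0.266 (SE, limma adjusted p = 0.598). For each peptide 4 HMACT pools lay above all LMACT pools. Without the 4 arrays that stand apart the Sst and Npy differences were both 0.12, and without HMACT saline pool 3 alone they were 0.20 and 0.18. The Pvalb difference was -0.84 without those 4 arrays (limma adjusted p = 0.171, within a range of 0.0983 to 1 over all alternatives) and -0.67 without HMACT saline pool 3. Of the 5 genes, Sst and Npy moved most in proportion when these arrays were left out.

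After saline alone, the Pvalb difference between lines was -0.99 ± 0.439 (SE) and that of Gad1 -0.37 ± 0.171 (SE), with limma adjusted p of 0.322 and 0.323. The Sst, Npy and Slc32a1 differences were 0.52, 0.38 and 0.31. No gene of 8251 was called (0%), although 15.2% had an unadjusted p under 0.05. After methamphetamine the differences were -0.75 for Pvalb, -0.17 for Gad1, 0.23 for Sst, 0.33 for Npy and 0.23 for Slc32a1. Every adjusted p was 1 in limma, again with 0% of genes called and 4.29% at an unadjusted p under 0.05. The saline and methamphetamine comparisons gave each gene the same direction, but Npy after saline was -0.13 without the 4 arrays that stand apart.

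**Figure D2:**
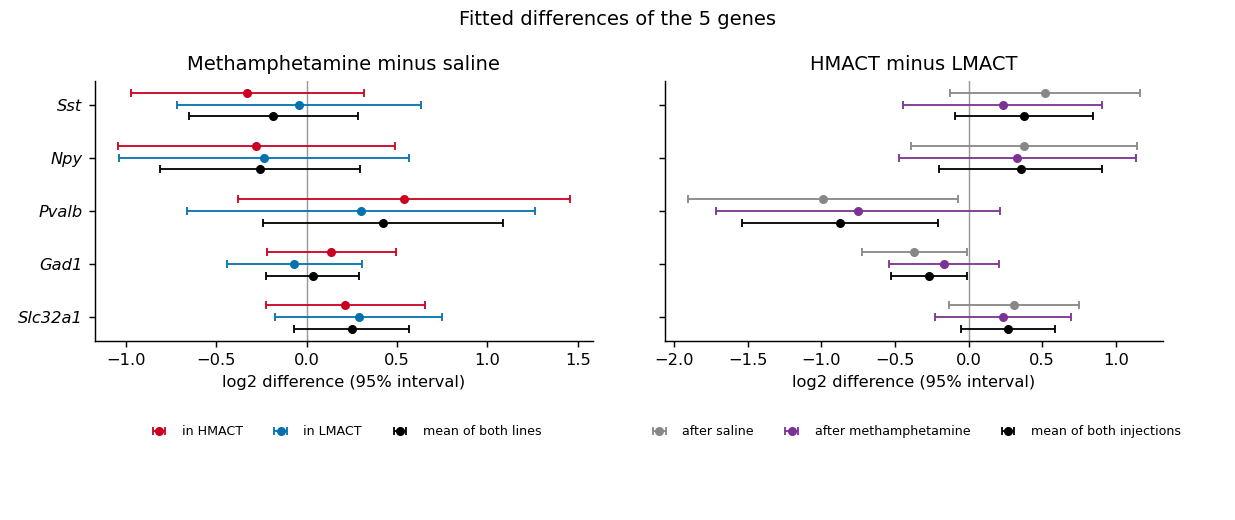
Fitted log2 differences (horizontal axis) of the 5 genes with 95% intervals from limma, methamphetamine minus saline on the left and HMACT minus LMACT on the right. In the line comparison averaged over injections, the intervals of Pvalb and Gad1 lie below 0 and those of Sst, Npy and Slc32a1 include 0; all 5 intervals for methamphetamine averaged over lines include 0.

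Age moved with line, and so did the glial marker sums. The HMACT median was 12.75 for oligodendrocytes, 13.29 for astrocytes and 10.6 for microglia, and the LMACT median was 13.3, 13.49 and 10.83. The astrocyte gap junction gene Gja1 was lower in HMACT by -0.45 (limma adjusted p = 0.297), while Gfap of the same list was higher by 0.53 (limma adjusted p = 0.399). The 4 oligodendrocyte genes above the floor were all lower averaged over injections, but after saline 3 were higher and 1 lower. Mobp, the brightest of the 4, differed by -0.80 averaged over injections (limma adjusted p = 0.117), against -0.16 for Mbp, -0.24 for Mog and -0.27 for Mag. The oligodendrocyte sum, of linear signal, thus follows Mobp most. Single genes of these lists thus did not all follow the sums. Among pools with a mean age under 100 days, Pvalb was 6.50 ± 0.37 in HMACT (SD, n = 6) and 7.15 ± 0.68 in LMACT (SD, n = 9). The fitted line difference in those pools was -0.66, against -0.94 with age as a covariate in all pools, with a limma adjusted p of 1 in both fits. Gad1 differed less in the younger pools: it was 10.79 ± 0.28 in HMACT (SD, n = 6) and 10.88 ± 0.20 in LMACT (SD, n = 9), a fitted difference of -0.08. Npy turned to -0.05 and Sst was 0.12, while Slc32a1 was 0.30. Among the 15 arrays of the largest chip lot the differences were -1.03 for Pvalb, -0.35 for Gad1, 0.64 for Sst, 0.55 for Npy and 0.12 for Slc32a1. The part of the glial differences in the line differences of the 5 genes was not tested.

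**Figure D3:**
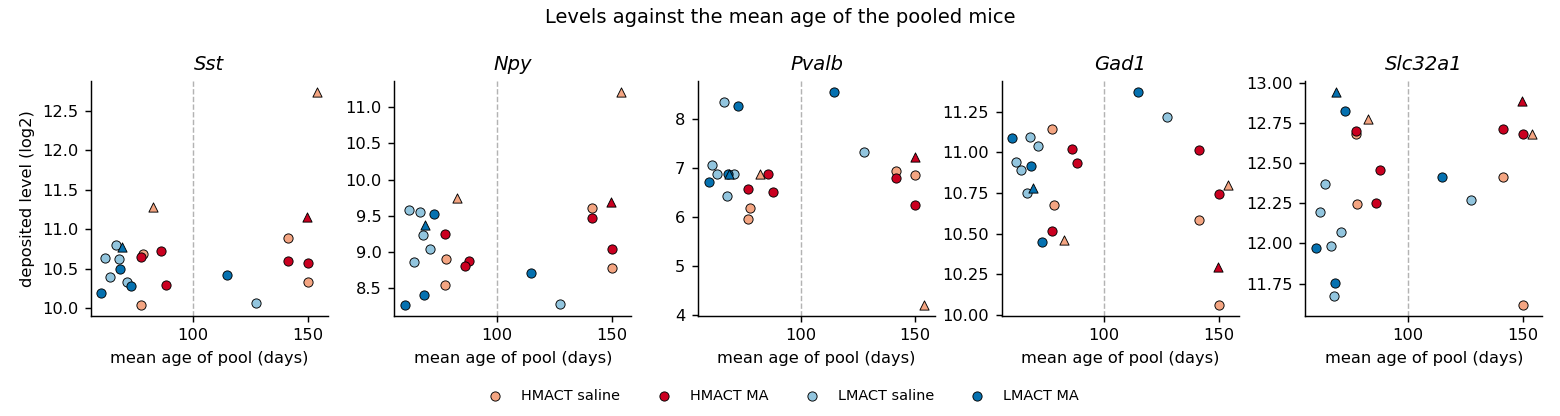
Deposited log2 level of each gene (vertical axes, separate scales) against the mean age of the pooled mice in days. The dashed line marks 100 days and triangles mark the 4 arrays that stand apart; 6 of 12 HMACT and 9 of 11 LMACT pools lie under 100 days, where Pvalb averaged 6.50 and 7.15.

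Methamphetamine was compared with saline to ask which genes respond within 1 h. Averaged over lines, Pvalb was higher by 0.42 ± 0.318 (SE, 95% interval -0.24 to 1.09) and Slc32a1 by 0.25 ± 0.152 (SE, -0.07 to 0.57). Npy was lower by -0.26 ± 0.266 (SE, -0.81 to 0.30) and Sst by -0.19 ± 0.223 (SE, -0.65 to 0.28), and Gad1 differed by 0.03 ± 0.124 (SE, -0.23 to 0.29). For Pvalb the second probe set differed by -0.12 ± 0.111 (SE), the other way, and the mean of both probe sets by 0.15. All adjusted p were 1 in limma, and 2 of 8251 genes (0.0242%) were called. Of 11 methamphetamine pools, 8 lay above the saline mean of their own line for Pvalb, 8 for Slc32a1, 6 for Gad1, 3 for Sst and 3 for Npy. The interval of Gad1 was the narrowest and that of Pvalb the widest, so a Pvalb response of up to about 1 log2 unit was within the error of these pools.

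In HMACT the drug differences were 0.54 for Pvalb, 0.21 for Slc32a1, 0.13 for Gad1, -0.33 for Sst and -0.28 for Npy, where 1 gene of 8251 (0.0121%) was called. For Pvalb, 6 of 6 HMACT methamphetamine pools exceeded the saline mean, which included the low value of pool 3. Without that saline pool the Pvalb difference was 0.15 and those of Sst and Npy turned to 0.02 and 0.07. In LMACT the differences were 0.30 for Pvalb, 0.29 for Slc32a1, -0.07 for Gad1, -0.04 for Sst and -0.24 for Npy, where no gene was called (0%) and 3.33% had an unadjusted p under 0.05. Leaving out LMACT methamphetamine pool 6 gave 0.03 for Pvalb. Every adjusted p for the 5 genes was 1 in both lines in limma.

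The drug difference in HMACT minus that in LMACT was 0.24 for Pvalb, 0.20 for Gad1, -0.29 for Sst, -0.04 for Npy and -0.07 for Slc32a1. Adjusted p in limma ran from 0.874 for Gad1 and 0.919 for Sst to 1 for the others. No gene was called in this comparison (0%), with 2.62% at an unadjusted p under 0.05. Without HMACT saline pool 3 the values for Sst, Npy and Pvalb turned to 0.06, 0.31 and -0.15. Over the 23 fits that each left out 1 array, the direction was kept in 23 for Gad1, 22 for Sst, 21 for Pvalb, 20 for Slc32a1 and 15 for Npy. Only Gad1 kept its direction throughout these fits, and for Sst it was HMACT saline pool 3 alone that turned it.

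Within groups, Sst and Npy moved together from pool to pool. Over the 23 deviations from group means, Pearson's r was 0.875 (permutation p = 1e-05, the smallest the permutations can give, adjusted over 10 gene pairs to 1e-04). Spearman's rho was 0.742 (permutation p = 0.00011, adjusted p = 0.0011). Without the pair of pools farthest from the median of Sst, r was 0.733, and without the 4 arrays that stand apart r was 0.644 and rho 0.598 (n = 19). The relation was present in both lines, with r = 0.959 in HMACT (n = 12) and 0.685 in LMACT (n = 11). It was 0.866 in the largest chip lot (n = 15) and 0.735 in pools under 100 days (n = 15). The HMACT and chip lot values include HMACT saline pool 3, the highest pool for both genes, while the LMACT and younger-pool values do not. Without that pool alone, r over the remaining pools was 0.780. The within-pool difference of Sst minus Npy had a residual SD of 0.31 against 0.54 for Sst and 0.64 for Npy. Without HMACT saline pool 3 it was 0.32, the same as Sst (0.32) and less than Npy (0.48), and without the 4 arrays that stand apart it was 0.35, more than Sst (0.25). All probe sets of an array share its RNA and scan, and what this adds to the relation was not tested.

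**Figure D4:**
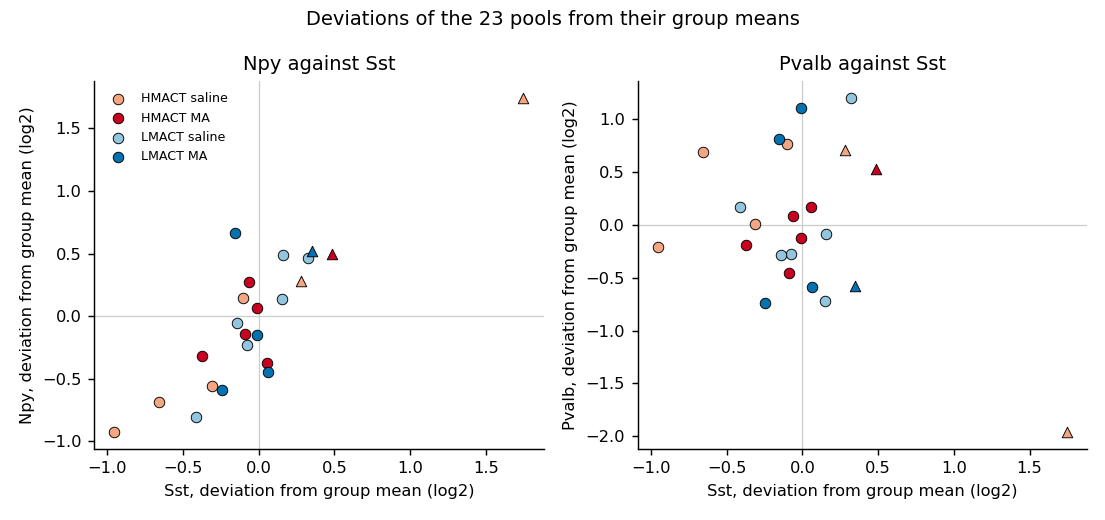
Deviation of Npy (left) and Pvalb (right) from the group mean against that of Sst, in log2 units, for the 23 pools colored by group, with triangles for the 4 arrays that stand apart. Npy follows Sst (r = 0.875, and 0.644 without the triangles), while the Pvalb relation (r = -0.397) rests on HMACT saline pool 3 at the lower right.

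No other pair of the 5 genes passed the adjusted threshold. The nearest was Npy with Slc32a1, with r = 0.477 (permutation p = 0.0216, adjusted p = 0.108) and rho = 0.532 (permutation p = 0.0102, adjusted p = 0.0512). Without the 4 arrays that stand apart their r was 0.296. Npy with Gad1 had a rho of -0.440 (permutation p = 0.0367, adjusted p = 0.122). Pvalb with Sst had r = -0.397, which became 0.110 without HMACT saline pool 3, so this pair had no stable direction.

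HMACT saline pool 3 combined the extremes of 3 of the 5 genes. Relative to the mean of the other 5 HMACT saline pools it was 2.10 higher for Sst, 2.09 higher for Npy on the log2 scale, and Pvalb differed by -2.35. Gad1 and Slc32a1 were 0.22 and 0.34 higher, inside the range of the other pools. Of 5308 genes, 6.01% lay at least as far from the mean of the other pools as Sst, 6.03% as Npy and 3.77% as Pvalb. Most genes of that array thus lay nearer to the other pools than these 3. It also had the highest microglial marker sum of the 23 arrays (11.3) and the lowest cortical and subcortical glutamatergic sums (8.40 and 6.88). The microglial genes did not all follow their sum. C1qb was 4.10 above the mean of the other HMACT saline pools, and C1qa and Csf1r also lay above the range of those pools. Tyrobp lay inside that range, and Ctss, the brightest microglial gene, differed by -1.29 and lay below it. Of the glutamatergic genes, Tbr1 and Zic1 lay below the range of those pools, by -1.10 and -1.40 from their mean. Neurod6, Neurod2 and Tcf7l2 did not, but they could hardly show a fall. Neurod6 was above the floor on only 1 array, and the other pools of the group all read 2.44 for Neurod2 and 4.74 for Tcf7l2. The part of these markers in the Sst, Npy and Pvalb values was not tested.

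The genes whose levels ran most like each of the 5 over all 23 arrays were named by Spearman's rho among 5308 genes, as a description. For Sst these were Gpr19 (0.853), Shf (0.789) and Hba-a1 (0.785), and Npy came 8th with 0.764. For Npy they were Bola2 (0.883), Mrps12 (0.881) and Cops9 (0.876), with Sst 78th. The genes nearest Pvalb were less alike: Id2 (0.641), Zw10 (0.635) and Acaa1a (0.616). The flat Pvalb probe set gave Gnb4 (0.693), Nobox (0.682) and Vps26c (0.678), none of them shared with the first. Gad1 ran with Cipc (0.862), Tram1 (0.852) and Sdha (0.832), and Slc32a1 with Stmn3 (0.892), Snx3 (0.865) and Ncdn (0.858). By Pearson's r only Cipc and Snx3 stayed among the top 3, and all these values share the arrays' common axis. Without the 4 arrays that stand apart, rho was 0.752, 0.636 and 0.707 for the genes nearest Sst and 0.840, 0.811 and 0.842 for those nearest Npy. It was then 0.925, 0.879 and 0.861 for those nearest Gad1 and 0.861, 0.840 and 0.793 for those nearest Slc32a1.

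Other genes of the same pathways were measured beside the 5, and none was called in any of the 7 comparisons. The list of 13 GABA synthesis, uptake and breakdown genes also includes Gad1 and Slc32a1, and 7 of the 13 were on the array and 6 above the floor somewhere. Of these 6, 2 had positive and 4 negative line differences, with a median of -0.12 against 0.01 over 6162 genes above the floor. The positive ones were Slc32a1 (0.27) and Slc6a13 (0.01, at a mean level of only 2.76), and Gad1 (-0.27) was among the negative ones. Slc38a2, a glutamine transporter, differed most between lines: its means were 4.83 ± 0.43 and 4.67 ± 0.54 in HMACT saline and methamphetamine (SD, n = 6 each) and 5.51 ± 0.17 and 5.33 ± 0.39 in LMACT (SD, n = 6 and 5), a difference of -0.67 (limma adjusted p = 0.135). The second GABA-synthesizing enzyme, Gad2, differed by -0.23 (limma adjusted p = 0.598). Glul, which makes glutamine in glia, differed by -0.01.

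Of 10 somatostatin and neuropeptide Y receptor genes, all on the array, 6 were at the floor on every pool. The brightest of the rest was Npy2r, a presynaptic neuropeptide Y receptor. Its mean was 8.01 ± 1.03 in HMACT saline and 8.70 ± 0.75 in HMACT methamphetamine pools (SD, n = 6 each). In LMACT it was 9.37 ± 0.30 after saline and 9.43 ± 1.02 after methamphetamine (SD, n = 6 and 5). The line difference of -1.05 ± 0.339 (SE) had a limma p of 0.00590 and an adjusted p of 0.260. Its direction was opposite to that of its ligand gene Npy, whose difference was 0.35. On HMACT saline pool 3 Npy2r was at 6.44, against 7.38 to 9.12 in the other pools of that group. Sstr2, a somatostatin receptor, differed by -0.05 and Npy1r by 0.19.

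Of 11 neuropeptide processing genes 10 were measured, and 9 of them had negative line differences averaged over injections, with a median of -0.14. After saline 6 of the 10 were negative and after methamphetamine 7 of the 10. Over 6162 genes above the floor, 52.3%, 55.8% and 45.0% had positive differences in these comparisons. Chgb, a granule protein, was lower in HMACT by -0.45 (limma adjusted p = 0.200) and Cpe, which trims peptide precursors, by -0.13. The exception was Pcsk1n, which encodes an inhibitor of the convertase PCSK1, higher by 1.06 (limma adjusted p = 0.221). Its level was 13.84 ± 0.66 and 13.39 ± 0.97 in HMACT saline and methamphetamine pools (SD, n = 6 each) against 12.35 ± 0.54 and 12.76 ± 0.83 in LMACT (SD, n = 6 and 5). HMACT saline pool 3 was at 15, against 12.95 to 13.82 in the other pools of its group. The drug difference with the smallest p in this list was that of Pam, which amidates peptides, at 0.30 (limma adjusted p = 1).

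Of 32 other interneuron genes 23 were on the array and 18 above the floor, with 11 positive and 7 negative line differences and a median of 0.03. Reln, an extracellular protein of some interneurons, was lower in HMACT by -0.53 (limma adjusted p = 0.256), and the peptide gene Cck was higher by 0.33 (limma adjusted p = 0.447). Dlx2, a homeobox factor of developing inhibitory neurons, differed by 0.08, and Lhx8 by 0.09. Of 8 calcium-binding relatives of parvalbumin on the array, 6 were above the floor, 4 with positive and 2 with negative line differences (median 0.20). Calb1 was lower in HMACT by -0.50, in the direction of Pvalb, while Hpca and S100b were higher by 0.57 and 0.38, with limma adjusted p of 0.437, 0.408 and 0.272. On HMACT saline pool 3 Hpca and S100b were at 11.83 and 6.24, against at most 10.37 and 5.81 in the other pools of that group. Of 15 other neuropeptide genes 10 were on the array and 6 above the floor, with 2 positive and 4 negative line differences (median -0.09). These differences were -0.18 for Penk, -0.18 for Tac1 and 0.47 for Pdyn, with limma adjusted p of 0.445 to 0.497. Pdyn was at 9.6 on HMACT saline pool 3, against 6.98 to 8.36 in the other pools of that group. For methamphetamine the medians of these lists lay between -0.04 and 0.08, against 0.00 over all genes above the floor.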

How the data were processed

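Total RNA of pooled accumbens tissue was labeled with biotin and read on 23 Affymetrix arrays, per the labels' protocols. The deposited values are taken as log2 from their range; for their normalization, probe summary and genome build the sources used here state nothing. Per the submitters' processing notes, R 2.7.1 was among the tools. Of 12488 probe sets, 10833 had 1 gene symbol in the platform annotation, 396 several and the rest none, and 66 were controls; 10817 matched a RefSeq gene. The probe set with the highest mean stood for each of 8251 genes, of which 2089 (25.3%) were at the floor of 2.3 on every array. The closest of 253 array pairs differed by 0.0861 on average, so no array was a copy. The number of pools limits the precision.

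Group means were fitted to all 23 arrays with limma 3.58.1 in R 4.3.3, a model tested on simulated data. Tests were two-sided with Benjamini-Hochberg adjustment over all genes at 0.05, in 7 comparisons. Relations between genes used 100000 permutations. List medians leave out genes at the floor everywhere. Named genes were the 5 genes and the 3 genes most like each probe set. From each list they were up to 3 with the highest level, up to 2 with the smallest p for line and for methamphetamine, and any called. Gad2, Gja1, Gfap, Mobp, Mbp, Mog, Mag, C1qa, C1qb, Csf1r, Tyrobp, Ctss, Tbr1, Zic1, Neurod6, Neurod2, Tcf7l2, Rgs9 and Cnp were named after their values were seen. The 5 genes and the lists were chosen with earlier results of these data known. Alternatives covered normalization, filters, probe choice, array weights, trend, chip lot, age, replicate block, the groups in the fit and each array left out. After seeing the data, a fit without the 4 unusual arrays and a fit with the array axis as a covariate were added. The axis scores hold line and drug differences, so that covariate can take up part of them.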

Additional observations from a re-analysis of the deposited data

Results flagged for a closer look

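Of 24 groups of values, formed by the 6 probe sets and 4 groups, 4 held a pool that lay far from its group by Dixon's test, where chance gives about 1 group in 20. For Pvalb by 96719_i_at, HMACT saline pool 3 was at 4.21, and its nearest neighbor in the group was at 5.96. The other 3 were for 96720_f_at, the flat Pvalb probe set: HMACT methamphetamine pool 1 at 3.49, HMACT saline pool 5 at 3.74 and LMACT saline pool 4 at 4.47. For that probe set 14 of 23 arrays shared a level within 0.01 of 3.36, which leaves a narrow range for the test. No pool was marked for Sst, Npy, Gad1 or Slc32a1, and HMACT saline pool 3 was not marked for Sst or Npy at 12.74 and 11.21.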

How the results depend on the processing

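None of the 5 genes passed the threshold in any of 805 values with 1 array left out (smallest limma adjusted p 0.111), and 1 of 545 values passed under the other alternatives: Gad1 between lines with array weights (-0.31, adjusted p = 0.0428, against 0.146 to 1 elsewhere). The line differences of Sst, Pvalb, Gad1 and Slc32a1 averaged over injections kept their direction in every alternative run, and that of Npy in all but pools under 100 days (-0.051). After saline Npy was -0.19 in pools under 100 days, -0.13 without the 4 arrays that stand apart and -0.20 with their axis as a covariate, and Gad1 after methamphetamine was 0.017 in pools under 100 days. Drug differences turned for Gad1 averaged over lines (-0.035) and for Slc32a1 in HMACT (-0.098) in pools under 100 days, for Gad1 in LMACT with array weights (0.15), and for Sst (0.081) and Npy (0.13) in HMACT without the 4 arrays. The interaction turned most often: with array weights for Npy (0.32) and Pvalb (-0.47), in the largest chip lot for Pvalb (-0.066) and Slc32a1 (0.22), in pools under 100 days for Sst (0.010) and Npy (0.27), without the 4 arrays for Sst (0.21), Npy (0.49), Pvalb (-0.33) and Slc32a1 (0.18), and with the axis for Sst (0.079), Npy (0.41) and Slc32a1 (0.15). The cause was not tested. With 1 array left out, the drug difference averaged over lines ran from -0.024 to 0.092 for Gad1, that in HMACT from -0.52 to 0.020 for Sst and from -0.47 to 0.069 for Npy, and that in LMACT from -0.13 to 0.023 for Sst and from -0.18 to 0.050 for Gad1. The interaction then ran from -0.48 to 0.062 for Sst, -0.23 to 0.31 for Npy, -0.15 to 0.51 for Pvalb and -0.23 to 0.066 for Slc32a1. Leaving out HMACT saline pool 3 was what turned Sst and Npy in HMACT and the Sst interaction.

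Over all genes, the number called varied more. For the line comparison averaged over injections it was 16, against 26 with quantile normalization, 29 without the dimmest 40% of genes, 830 with array weights, 1 each with age as a covariate, in the largest lot and in pools under 100 days, 46 without the 4 arrays, 37 with the axis, and 9 to 76 with 1 array left out (76 without LMACT methamphetamine pool 4). After saline it was 0, against 236 with array weights, 1 with only the groups compared, 1 without the 4 arrays and 0 to 2 with 1 left out. After methamphetamine it was 0, against 2 with quantile normalization, 1 with median centring, 136 with array weights, 3 without the 4 arrays, 14 with the axis and 0 to 3 with 1 left out. For the drug averaged over lines it was 2, against 4 without the dimmest genes, 6 with array weights, 4 with the replicate block within line, 0 in the largest lot, 1 in pools under 100 days, 5 without the 4 arrays, 7 with the axis and 2 to 5 with 1 left out. In HMACT it was 1, against 2 without the dimmest genes, 2 with array weights, 0 with only the groups compared, 0 in the largest lot, 3 without the 4 arrays, 2 with the axis and 1 to 2 with 1 left out. In LMACT it was 0, against 1 without the dimmest genes, 31 with array weights, 1 each with the replicate block within line, with only the groups compared, in pools under 100 days, without the 4 arrays and with the axis, and 0 to 2 with 1 left out. No interaction was called in any fit.

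Pools with the same replicate number in a line were not treated as pairs in the main fit, as no label calls the number a pairing, a litter or a day. The correlation of their deviations, from -0.618 to 0.876, was over 0.1 in 5 of 6 HMACT and 3 of 5 LMACT pairs. The labels do give same-numbered pools the same chip lot in 6 of 6 HMACT and 4 of 5 LMACT pairs, and the same mean age in 3 HMACT pairs. The number is thus tied to chip lot, a batch, and in part to age. Of 12 HMACT and 10 LMACT pools with a same-numbered partner, 4 and 3 correlated best with it. With the replicate number as a fixed block, 15 genes were called between lines and the Pvalb difference was -0.88 (adjusted p = 0.278); as a random block within line, 13 genes were called and it was -0.87 (adjusted p = 0.424). The block changed no call for the 5 genes. Signal limits the reading of Pvalb: its second probe set hardly left its recurring level, and the one used read the same value on 4 arrays, for which the cause was not tested. With the mean of both probe sets its line difference was -0.47 and its drug difference 0.15.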
